A study of Mus musculus with 8 samples.

Results

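Jchain, Igkc, Igha and Ighg2c encode parts of secreted antibodies and are the transcripts by which antibody-secreting plasma cells are usually recognised in tissue. These 4 genes were picked by name out of the 5828 genes in the deposited tables, and they were chosen on their averages in epithelium and stroma with earlier results of these data known. Their values are therefore a description and carry no test. Jchain, Igkc and Igha were present in all 4 comparison tables. Ighg2c was present in those of KO against WT stroma and of WT epithelium against WT stroma, and it is not listed for KO epithelium.

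Plasma cells descend from B cells and export antibody, which pairs heavy chains, whose constant region sets the class (IgA, IgG), with kappa or lambda light chains. Igha gives the IgA heavy chain constant region, Ighg2c that of the subclass IgG2c, and Igkc the kappa light chain constant region. Jchain gives the joining chain, which links IgA into polymers that the polymeric immunoglobulin receptor of epithelial cells, encoded by Pigr, carries into the lumen. In mucosal tissues IgA-secreting plasma cells usually lie in the connective tissue under the epithelium, and in rats the estrogen estradiol raises IgA in uterine secretions.

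The uteri came from 4 KO females, which carry floxed Ezh2 alleles (EZ fl/fl) with a Cre expressed from the progesterone receptor locus (Prcre/+), and from 4 WT females, which carry the same floxed alleles without the Cre. The Cre allele is thus present in KO alone, and the progesterone receptor is active in epithelium, stroma and muscle of the uterus. Each of 4 litters gave 1 KO and 1 WT female of mixed C57BL/6 and 129SvEv background. All females were ovariectomized at postnatal day 71 ± 4 and their uteri were collected at day 112 ± 11. Sections of 10 µm were profiled by Visium, in which barcoded spots under the tissue capture polyadenylated RNA and count transcripts as unique molecular identifiers (UMIs). Several cells, of different types, can lie on 1 spot. Transcripts of Ezh2, a Polycomb methyltransferase, were not analysed here, and the deletion was not checked.

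The tables hold 1 value per gene for each of 4 pools of spots, KO epithelium, WT epithelium, KO stroma and WT stroma, each pooled over the animals of a genotype. No spread between animals can be had from them, and the intervals below are 95% intervals that cover counting error only. On the scale of the authors' size factors, depth relative to the WT stroma pool was 2.75 for KO epithelium, 2.54 for WT epithelium and 2.01 for KO stroma. The pools held 416747 to 1552958 UMIs over the genes listed for them. Levels below are pooled UMI sums divided by this relative depth. Fewer plasma cells in a pool and less immunoglobulin RNA per cell cannot be told apart in such pools. A gene is called below where the authors' deposited table gives an adjusted p-value under 0.05. Of the simple epithelium markers, 13 of 13 listed were called higher in KO epithelium than in KO stroma, where 5.43% of all listed genes were, and 10 of 10 in WT epithelium over WT stroma, where 13.1% were. Their summed level was 3.30-fold higher in epithelium in KO and 8.41-fold higher in WT. Of 12 endometrial stroma markers, 4 were called lower in KO epithelium than in KO stroma, where 4.45% of all listed genes were. In WT epithelium 8 were called lower than in WT stroma, where 15.7% of all listed genes were. Their summed level in epithelium was 1.92-fold lower in KO and 3.08-fold lower in WT. The markers of both compartments thus had the smaller contrast in KO, a difference that was not tested and that goes with the smaller contrast of the members in KO given below.

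The plasma cell label rests on the immunoglobulin genes themselves. Of 40 genes listed as a plasma cell program, 12 were in any table. The plasma cell markers Mzb1, Derl3, Irf4 and Tnfrsf17 were not among the listed genes, and Xbp1, Sdc1 and Prdm1, which were, are also used by epithelial cells. None of 14 B cell genes, among them Cd79a and Ms4a1, and none of 16 T and NK cell genes was listed in any table. A gene is listed only where its average exceeds 1 in at least 1 group of the table, so these genes may be present at lower levels.

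Jchain lies on chromosome 5 of GRCm38 (88519809 to 88527891, minus strand) as a protein-coding gene. Igkc lies on chromosome 6 (70726435 to 70726966, plus strand), and Igha (113254830 to 113260236) and Ighg2c (113285325 to 113288932) lie on the minus strand of chromosome 12. These 3 are annotated as immunoglobulin constant genes, and in plasma cells such genes are transcribed from the promoter of the variable gene joined to them in each clone. The 250 bases before the RefSeq start of Jchain (GRCm38.p6, chr5:88527898-88528147, minus strand) are shown because Jchain is the member with a fixed promoter, with matches to the E-box letters CANNTG, the core bound by E proteins such as E2A, in capitals:
Jchain: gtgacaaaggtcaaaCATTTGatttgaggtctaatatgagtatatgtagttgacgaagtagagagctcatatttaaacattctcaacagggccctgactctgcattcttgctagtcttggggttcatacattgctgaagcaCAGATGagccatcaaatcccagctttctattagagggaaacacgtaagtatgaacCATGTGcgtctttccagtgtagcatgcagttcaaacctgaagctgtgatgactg
Read on both strands, CANNTG was found at 3 places in this window, which begin 235, 109 and 54 bases before the start, and 66.2% of 32851 mouse promoter windows of the same length hold it. The octamer ATGCAAAT, the element of variable gene promoters, was not found in the window and is held by 1.60% of them. The ETS core GAGGAA, which PU.1 binds, was not found either and is held by 23.3%. No matches of different motifs overlap, and a match is a description of letters only.

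Jchain, Igkc and Igha had the same order of levels over the pools. KO epithelium held 799 Jchain UMIs and WT epithelium 430, and KO stroma held 1069 and WT stroma 999. Scaled for depth, the Jchain level was 290 (interval 270 to 311) for KO epithelium and 169 (154 to 186) for WT epithelium, and 531 (500 to 564) for KO stroma and 999 (938 to 1063) for WT stroma. It was thus highest in WT stroma and lowest in WT epithelium, with both KO pools between them, and no neighbours in that order overlapped within counting error.

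KO epithelium held 3619 Igkc UMIs and WT epithelium 1955, and KO stroma held 4535 and WT stroma 2877. The scaled Igkc level was 1314 (1271 to 1357) for KO epithelium and 769 (735 to 804) for WT epithelium, and 2254 (2189 to 2321) for KO stroma and 2877 (2773 to 2984) for WT stroma. More raw UMIs thus came from KO stroma, the deeper of the stroma pools, and the higher level from WT stroma. KO epithelium held 4854 Igha UMIs and WT epithelium 2640, and KO stroma held 5730 and WT stroma 4133. The scaled Igha level was 1762 (1713 to 1812) for KO epithelium and 1039 (999 to 1079) for WT epithelium, and 2848 (2775 to 2923) for KO stroma and 4133 (4008 to 4261) for WT stroma. Both genes repeat the order of Jchain, and their pools do not overlap within counting error. Summed, Jchain, Igkc and Igha took 0.786% (0.770% to 0.802%) of KO epithelium UMIs and 0.474% (0.461% to 0.487%) of WT epithelium UMIs over the 1755 genes with a sum in every pool. The share was 1.33% (1.31% to 1.36%) for KO stroma and 1.93% (1.89% to 1.97%) for WT stroma.

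**Figure D1:**
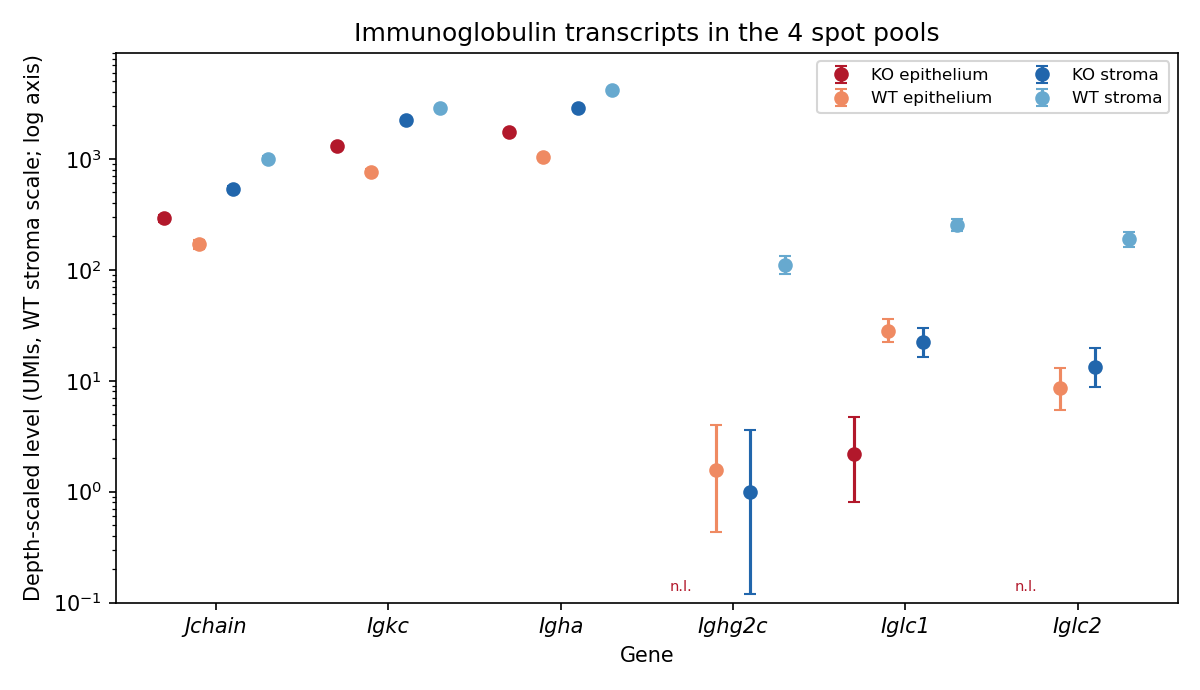
Depth-scaled level (pooled UMIs divided by depth relative to WT stroma, log axis) of the 4 members and of the lambda light chain genes Iglc1 and Iglc2 in the 4 spot pools; bars are exact 95% Poisson intervals of the count and n.l. marks a gene not listed for KO epithelium. Jchain, Igkc and Igha are highest in WT stroma and lowest in WT epithelium, and Ighg2c stands at 0.994 in KO stroma and 1.57 in WT epithelium, against 111 in WT stroma.

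Between genotypes in epithelium, Jchain, Igkc and Igha all had the higher value in KO. The authors' deposited table gives Jchain an average of 13.0 for KO epithelium and 7.56 for WT epithelium. For Igkc it gives 58.7 for KO epithelium and 34.4 for WT epithelium, and for Igha 78.7 for KO epithelium and 46.4 for WT epithelium. Jchain stood 1.71-fold higher in KO epithelium (interval 1.52 to 1.93), Igkc 1.71-fold (1.62 to 1.81) and Igha 1.70-fold (1.62 to 1.78), and these intervals overlap. Of the 5811 listed genes, 85 had a larger log2 ratio than Jchain, 88 than Igkc and 95 than Igha. None of these 3 genes was called, where 0.12% of all listed genes were, and the authors' deposited table gives each an adjusted p of 1. That test is not described in the sources used here and gives no unadjusted p.

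In stroma the same genes stood lower in KO. The authors' deposited table gives Jchain an average of 6.27 for KO stroma and 11.8 for WT stroma. For Igkc it gives 26.6 for KO stroma and 34.0 for WT stroma, and for Igha 33.6 for KO stroma and 48.8 for WT stroma. These averages are scaled within each comparison and cannot be set against those of another comparison. The Jchain average of KO epithelium was 13.0 beside WT epithelium and 6.54 beside KO stroma. Jchain was 1.88-fold lower in KO stroma (1.72 to 2.05), Igha 1.45-fold (1.39 to 1.51) and Igkc 1.28-fold (1.22 to 1.34). The intervals of these folds do not overlap, so here the genes differed by unequal factors. Of 1191 listed genes, 24 had a lower log2 ratio than Jchain, 126 than Igha and 251 than Igkc.

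KO stroma held 2 Ighg2c UMIs and WT stroma 111, a ratio of 0.00896 (0.00107 to 0.0331). This is the lowest ratio of the 1191 genes, and Ighg2c is listed through WT stroma alone, with an average of 0.0117 in KO stroma against 1.31 in WT stroma in the authors' deposited table. None of the 4 genes was called between genotypes in stroma, where 1.51% of all listed genes were. The authors' deposited table gives an adjusted p of 0.177 for Ighg2c, 0.638 for Jchain, and 1 for both Igkc and Igha.

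Between compartments in WT uterus all 4 genes were called lower in epithelium, where 15.7% of all 1769 listed genes were (28.8% in either direction). The contrast is among those that chose the genes, so the count is given as a description. Jchain was 5.91-fold lower in WT epithelium than in WT stroma (5.27 to 6.63), Igha 3.98-fold (3.79 to 4.18) and Igkc 3.74-fold (3.53 to 3.96). WT epithelium held 4 Ighg2c UMIs and WT stroma 111, a level 70.5-fold lower in epithelium (26.8 to 263). This was the lowest ratio of the table, for a gene listed there through WT stroma alone. The authors' deposited table gives an adjusted p of 4.33e-11 for Jchain, 5.44e-05 for Igha, 0.00104 for Igkc and 0.00305 for Ighg2c.

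In KO uterus the same contrast was smaller. Jchain was 1.83-fold lower in KO epithelium than in KO stroma (1.67 to 2.01), Igkc 1.72-fold (1.64 to 1.79) and Igha 1.62-fold (1.56 to 1.68). None of these 3 genes was called, where 9.88% of all 2744 listed genes were and 4.45% were called lower, and the authors' deposited table gives adjusted p-values of 0.36 for Jchain, 0.675 for Igkc and 0.697 for Igha. A call in WT and none in KO does not show that the contrasts differ, and that difference was not tested, since it needs a spread between animals.

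**Figure D2:**
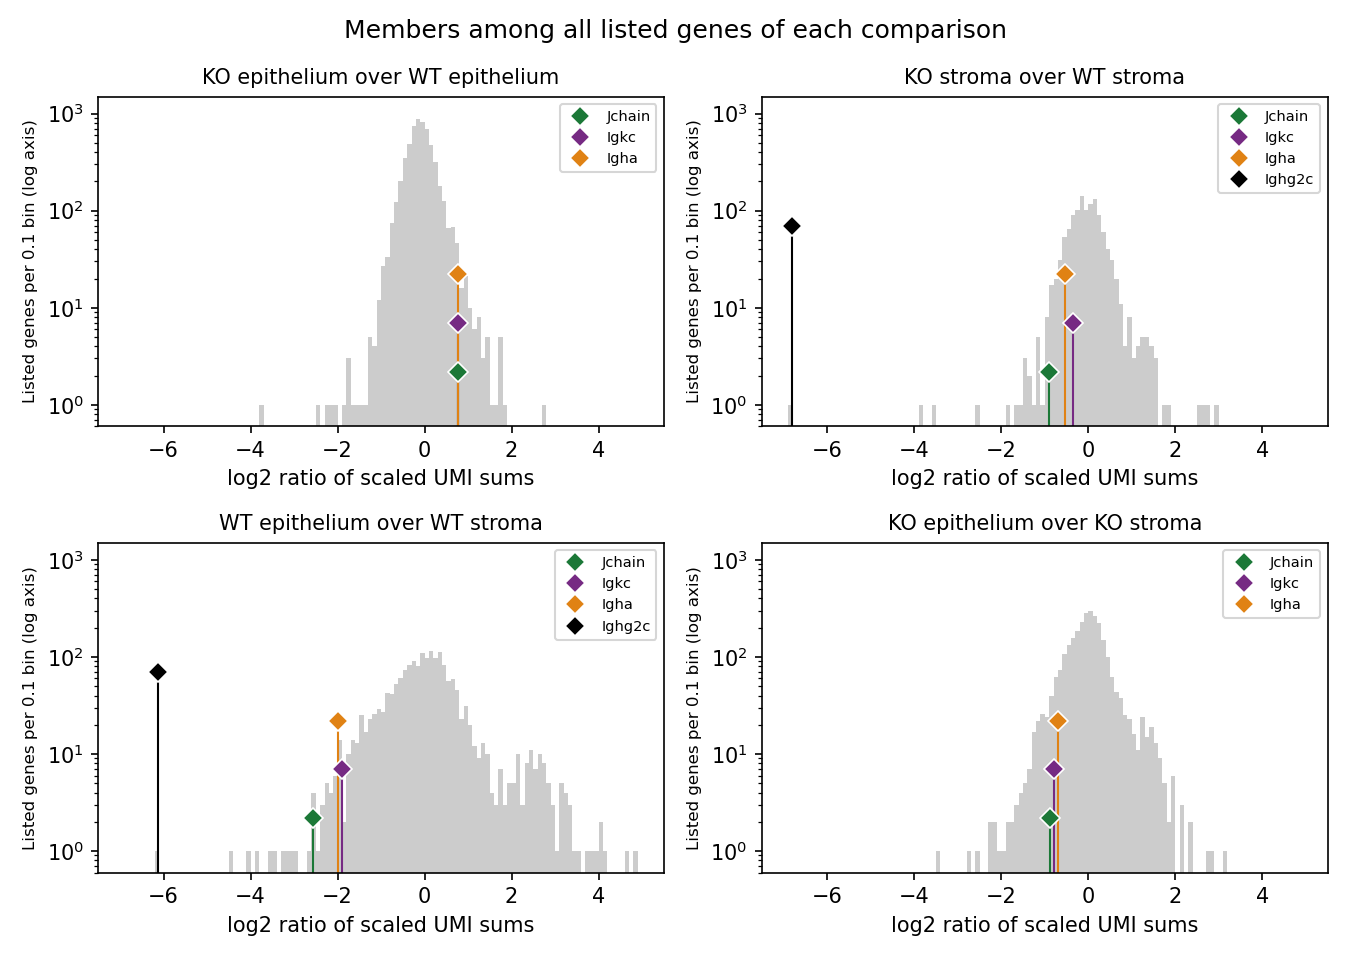
Histograms of the log2 ratio of depth-scaled UMI sums over all listed genes in the 4 comparisons (bins of 0.1, count on a log axis), with a diamond at each member; the height of a diamond has no meaning. Jchain, Igkc and Igha coincide at 0.76 to 0.78 between genotypes in epithelium, and Ighg2c holds the lowest ratio in both tables that list it.

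The size of the change in contrast was then described. The epithelium over stroma ratio of Jchain was 3.22 times as large in KO as in WT (2.78 to 3.74), that of Igha 2.46 times (2.31 to 2.62) and that of Igkc 2.18 times (2.03 to 2.34). Over the 1737 genes in both compartment tables the median log2 change was -0.02. Of the 841 of these genes that were lower in WT epithelium, as the members were, 638 had a smaller absolute contrast in KO. The median log2 ratio of the 841 was -0.30 in KO and -0.47 in WT. Of these genes 2 had a larger change than Jchain, 5 than Igha and 10 than Igkc. The 2 genes above Jchain, named after their values were seen, were the hemoglobin genes Hba-a1 (5.20 times) and Hbb-bs (4.20 times), which mark red cells. KO epithelium held 79 Hbb-bs UMIs and WT epithelium 44, and KO stroma held 162 and WT stroma 204, which gives the same order of scaled levels as for Jchain. The part of blood in the antibody transcript differences was not tested.

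**Figure D3:**
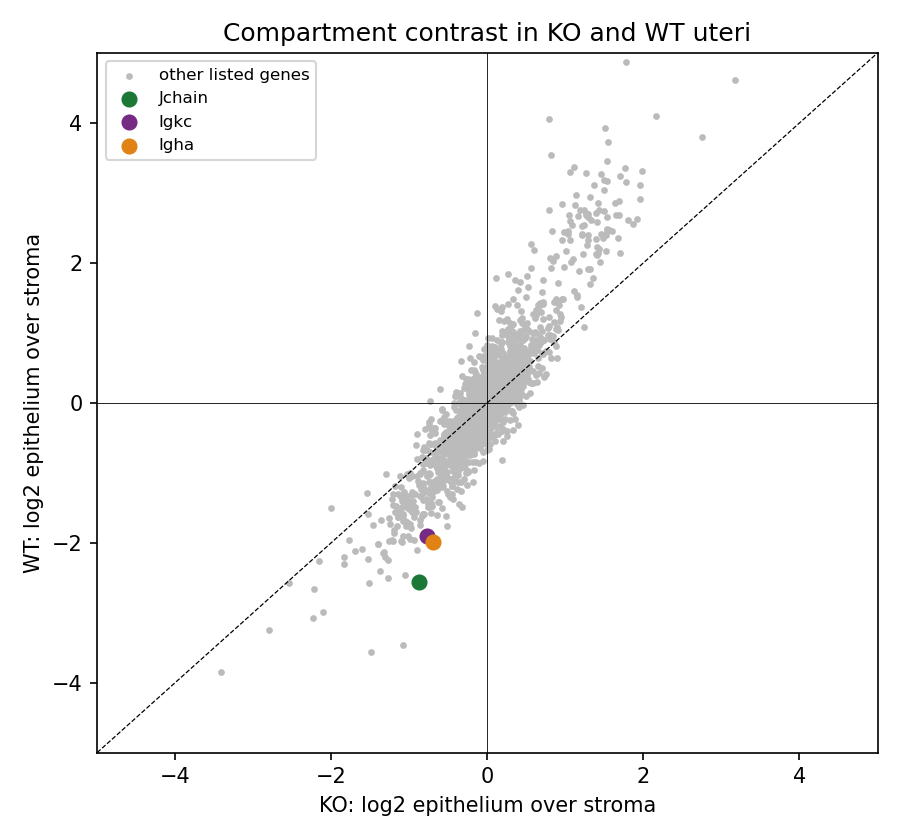
Log2 ratio of epithelium over stroma in KO uterus (x axis) and in WT uterus (y axis) for the 1737 genes in both compartment tables; the dashed line marks equal contrasts. Jchain (-0.87 in KO, -2.56 in WT), Igkc (-0.78 in KO, -1.90 in WT) and Igha (-0.69 in KO, -1.99 in WT) lie below the line, with a smaller contrast in KO.

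The makeup of the antibody transcripts was compared between pools, a measure that does not depend on how pools are scaled. Visium counts 1 tag per captured transcript, so no length correction was made, and shares are compared between pools and not between genes. Per Igha UMI, KO epithelium held 0.165 Jchain UMIs (0.153 to 0.177) and WT epithelium 0.163 (0.147 to 0.180), and KO stroma held 0.187 (0.175 to 0.199) and WT stroma 0.242 (0.225 to 0.259). Both epithelial pools overlapped, and WT stroma lay above the other pools. Per Igkc UMI, KO epithelium held 1.34 Igha UMIs (1.28 to 1.40) and WT epithelium 1.35 (1.27 to 1.43), and KO stroma held 1.26 (1.22 to 1.31) and WT stroma 1.44 (1.37 to 1.51). The stroma pools differed beyond counting error in this ratio too, whereas the epithelial pools overlapped.

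Lambda light chain transcripts were lower in the KO pool than in the WT pool of the same compartment wherever both were listed. Iglc1, a lambda constant gene on chromosome 16, had 6 UMIs in KO epithelium against 72 in WT epithelium, and 45 UMIs in KO stroma against 254 in WT stroma. It was 13.0-fold lower in KO epithelium (5.69 to 36.6) and 11.4-fold lower in KO stroma (8.25 to 16.0). Across compartments the scaled levels of KO stroma (22.4, 16.3 to 29.9) and WT epithelium (28.3, 22.2 to 35.7) overlapped. In epithelium this was the largest absolute log2 ratio of all 5811 listed genes. Iglc2, another lambda constant gene, had 27 UMIs in KO stroma against 188 in WT stroma, 14.0-fold lower in KO (9.33 to 21.8), and 22 in WT epithelium. In each of these genotype comparisons the gene was listed through its WT average alone, a filter that favours a lower KO value. None of these genotype differences was called, and the authors' deposited table gives adjusted p-values of 0.841 for Iglc1 in epithelium, 0.327 for Iglc1 in stroma and 0.818 for Iglc2 in stroma. Between WT compartments Iglc1 was called lower in epithelium (8.97-fold, 6.88 to 11.8, adjusted p = 0.0197 in the authors' deposited table), whereas Iglc2 was not (21.7-fold, 13.9 to 35.5, adjusted p = 0.0667).

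Igkc, by comparison, differed less than 2-fold between genotypes in either compartment. The lambda and Ighg2c shares below describe single pools and rest on genes listed through WT averages. Iglc1 and Iglc2 together made up 1.56% of light chain UMIs in KO stroma (exact Clopper-Pearson interval 1.22% to 1.96%), 4.59% in WT epithelium (3.72% to 5.59%) and 13.3% in WT stroma (12.2% to 14.5%). In epithelium Iglc1 alone made up 0.166% of Iglc1 and Igkc UMIs in KO (0.0608% to 0.360%) and 3.55% in WT (2.79% to 4.45%). Ighg2c made up 0.0349% of Ighg2c and Igha UMIs in KO stroma (0.00423% to 0.126%), 0.151% in WT epithelium (0.0412% to 0.387%) and 2.62% in WT stroma (2.16% to 3.14%). How these UMIs were spread over the 4 animals of a genotype cannot be seen in the pooled sums.

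**Figure D4:**
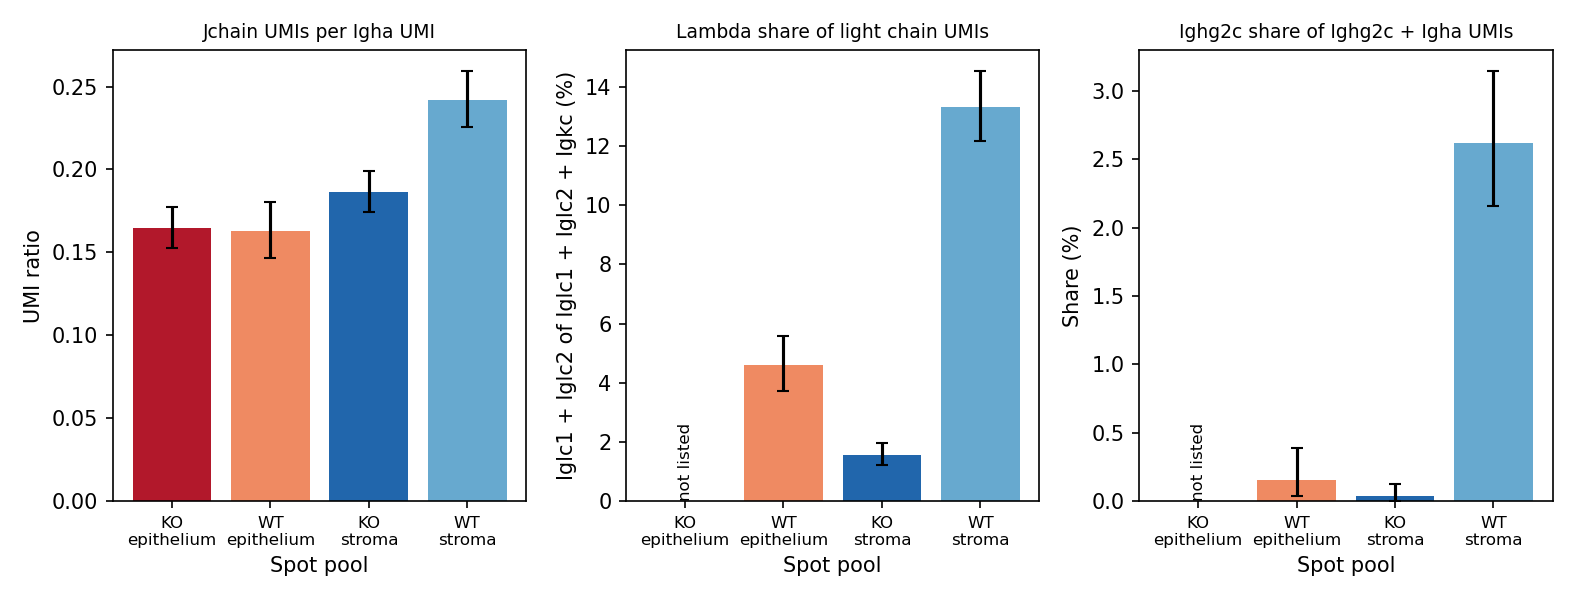
Jchain UMIs per Igha UMI (left), the share of Iglc1 and Iglc2 in light chain UMIs (middle) and the share of Ighg2c in Ighg2c and Igha UMIs (right), with exact 95% intervals for counting error; the left panel holds all 4 spot pools, and the others hold 3, since Iglc2 and Ighg2c are not listed for KO epithelium. WT stroma holds the highest value in each panel, at 0.242, 13.3% and 2.62%.

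Antibody constant genes have close copies, which can bear on how reads were assigned. The stretches below are the first gap-free 60 coding bases of each pair in GENCODE M21 (GRCm38, minus strand), with the bases that differ within a pair in capitals; Iglc1 lies at chr16:19062012-19062071, Iglc2 at chr16:19198793-19198852, Ighg2c at chr12:113288873-113288932 and Ighg2b at chr12:113307874-113307933:
Iglc1: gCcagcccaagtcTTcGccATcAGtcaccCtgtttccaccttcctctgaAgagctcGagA
Iglc2: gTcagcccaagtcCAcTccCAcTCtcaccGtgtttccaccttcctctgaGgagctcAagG
Ighg2c: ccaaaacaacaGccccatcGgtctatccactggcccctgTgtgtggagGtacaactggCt
Ighg2b: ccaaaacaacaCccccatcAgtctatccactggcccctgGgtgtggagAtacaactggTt
The Iglc1 and Iglc2 stretches differ at 12 of 60 bases and those of Ighg2c and Ighg2b at 5. Over the whole constant coding region, Iglc1 and Iglc2 were 73.4% identical, Iglc2 and Iglc3 96.2%, and Ighg2c and Ighg2b 85.6%. Iglc3 and Ighg2b were not among the listed genes. The values of Iglc2 and Ighg2c are uncertain as far as reads of such copies were split or dropped. Only coding bases were compared, and how alike the copies are in the part of the transcripts that was read was not examined. C57BL/6 mice carry Ighg2c where other strains carry Ighg2a, and the form in each animal of this mixed background is not given in the sources used here.

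Other genes of the plasma cell program, the lambda genes Iglc1 and Iglc2 apart, lay between 0.829-fold and 1.16-fold in KO over WT epithelium and between 0.780-fold and 1.05-fold in stroma. In epithelium the program had 10 listed genes with 0 called. Its 7 genes other than Jchain, Igkc and Igha, Iglc1 among them, had a median log2 ratio of -0.07, against -0.10 over all listed genes. Xbp1, a transcription factor of antibody secretion and of the unfolded protein response, had 265 UMIs in KO epithelium and 295 in WT epithelium (0.829-fold, 0.700 to 0.982). Prdm1, which drives plasma cell differentiation, had 71 in KO and 69 in WT (0.949-fold, 0.672 to 1.34). Sdc1, the surface proteoglycan CD138, had 255 in KO and 202 in WT (1.16-fold, 0.965 to 1.41). The secretory genes Txndc5, Creld2 and Sec11c had ratios of 1.15, 0.849 and 0.986 in epithelium. In stroma, Xbp1 had 237 UMIs in KO and 151 in WT (0.780-fold, 0.633 to 0.963), and Sdc1 had 176 in KO and 83 in WT (1.05-fold, 0.807 to 1.39). Txndc5 stood at 0.847-fold (0.671 to 1.07). The 5 listed program genes other than the members had a median log2 ratio of -0.36 in stroma, against -0.05 over all listed genes. That median includes Iglc1 and Iglc2, which were listed through WT stroma alone, a filter that favours a lower KO value. The rest of the 5 are Xbp1, Sdc1 and Txndc5, with the ratios given above. None of the 9 listed program genes was called between genotypes in stroma, where 1.51% of all listed genes were. Between WT compartments 5 of 9 were called lower in epithelium, where 15.7% of all listed genes were. They were Iglc1 and the members Jchain, Igkc, Igha and Ighg2c, and this contrast is among those that chose the members. Ighg2c and Iglc1 were listed there through WT stroma alone. Of the program genes listed between KO compartments, 0 of 6 were called, where 9.88% of all listed genes were.

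Genes that move antibody or receive it were sparse in the tables. Pigr was listed between genotypes in epithelium alone, with 59 UMIs in KO and 71 in WT (0.767-fold, 0.534 to 1.10), and was not called. Fcgrt, the neonatal Fc receptor that carries IgG, had 186 UMIs in KO epithelium and 167 in WT epithelium (1.03-fold, 0.829 to 1.27), and KO stroma held 223 and WT stroma 120 (0.924-fold, 0.737 to 1.16). It was called lower in WT epithelium than in WT stroma (0.547-fold) but not in KO epithelium (0.609-fold), with an adjusted p of 0.0158 in WT and 0.124 in KO in the authors' deposited table. Fcer1g, the signalling chain of Fc receptors, had 71 UMIs in KO epithelium and 43 in WT epithelium (1.52-fold, 1.03 to 2.28). Lgals3, a lectin that binds IgE, was the single gene of the list called higher, in KO epithelium over KO stroma (2.34-fold, adjusted p = 0.0123 in the authors' deposited table).

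Among factors that recruit or sustain plasma cells, 5 of 17 were in any table. Cxcl12, the chemokine that retains plasma cells in their niches, fell in KO stroma, with 609 UMIs in KO and 682 in WT (0.444-fold after depth scaling, 0.397 to 0.496, adjusted p = 0.0125 in the authors' deposited table), and was not called in epithelium, with 194 UMIs in KO and 219 in WT (0.817-fold, 0.670 to 0.996). It was the single called gene of 3 listed in stroma, where 0.756% of all listed genes were called lower, and the list had a median log2 ratio of 0.16 against -0.05 over all genes. Tnfsf13, which encodes the plasma cell survival factor APRIL, had 74 UMIs in KO epithelium and 46 in WT epithelium (1.48-fold, 1.01 to 2.19). Aldh1a2, an enzyme of retinoic acid synthesis, which favours the IgA class, had 129 UMIs in KO epithelium and 58 in WT epithelium (2.05-fold, 1.49 to 2.85), and KO stroma held 176 UMIs of the related Aldh1a1 and WT stroma 38 (2.30-fold, 1.61 to 3.36). In epithelium Aldh1a1 had the lower value in KO, with 261 UMIs in KO and 334 in WT (0.721-fold, 0.611 to 0.850). Between WT compartments Aldh1a1 was called higher in epithelium (3.46-fold, 2.47 to 4.97), where 13.1% of all listed genes were. Neither Aldh1a2 nor Aldh1a1 was called between genotypes. Il6st, the shared receptor chain of IL-6, was not called either, at 1.38-fold in epithelium (1.15 to 1.65) and 1.12-fold in stroma (0.921 to 1.36). In epithelium 0 of the 5 listed factors were called, where 0.12% of all listed genes were. Their median log2 ratio there was 0.46, against -0.10 over all listed genes.

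Markers of other cell types were set beside the members. The 12 endometrial stroma markers had a summed level 1.34-fold higher in KO epithelium than in WT epithelium and 1.19-fold lower in KO stroma than in WT stroma, the directions of Jchain, Igkc and Igha, with 0 called in either table. Dcn gave 7593 of their 13624 UMIs in KO stroma, and the list's median log2 ratio was 0.30 in epithelium and -0.07 in stroma, where 6 of 12 were lower. With WT stroma as 100%, the summed level of these markers was 43.6% in KO epithelium against 32.4% in WT epithelium, and 84.0% in KO stroma. The corresponding Jchain level was 29.0% in KO epithelium against 16.9% in WT epithelium, and 53.2% in KO stroma. The 2 hemoglobin genes with a sum in every pool stood at 15.4% in KO epithelium against 8.72% in WT epithelium, and at 38.7% in KO stroma. Simple epithelium markers had a summed ratio of 2.37 in KO over WT stroma over 5 listed genes, with 0 called, and of 0.875 in KO over WT epithelium over 15. That of blood endothelium genes was 1.07 in epithelium over 5 genes and 0.755 in stroma over 4. Smooth muscle genes were lower in KO on both sides, with summed ratios of 0.607 in epithelium over 10 genes (0 called) and 0.486 in stroma over 9 (4 called lower). Of all genes listed between genotypes in stroma, 0.756% were called lower. The part of these cell types in the antibody transcript differences was not tested.

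**Figure D5:**
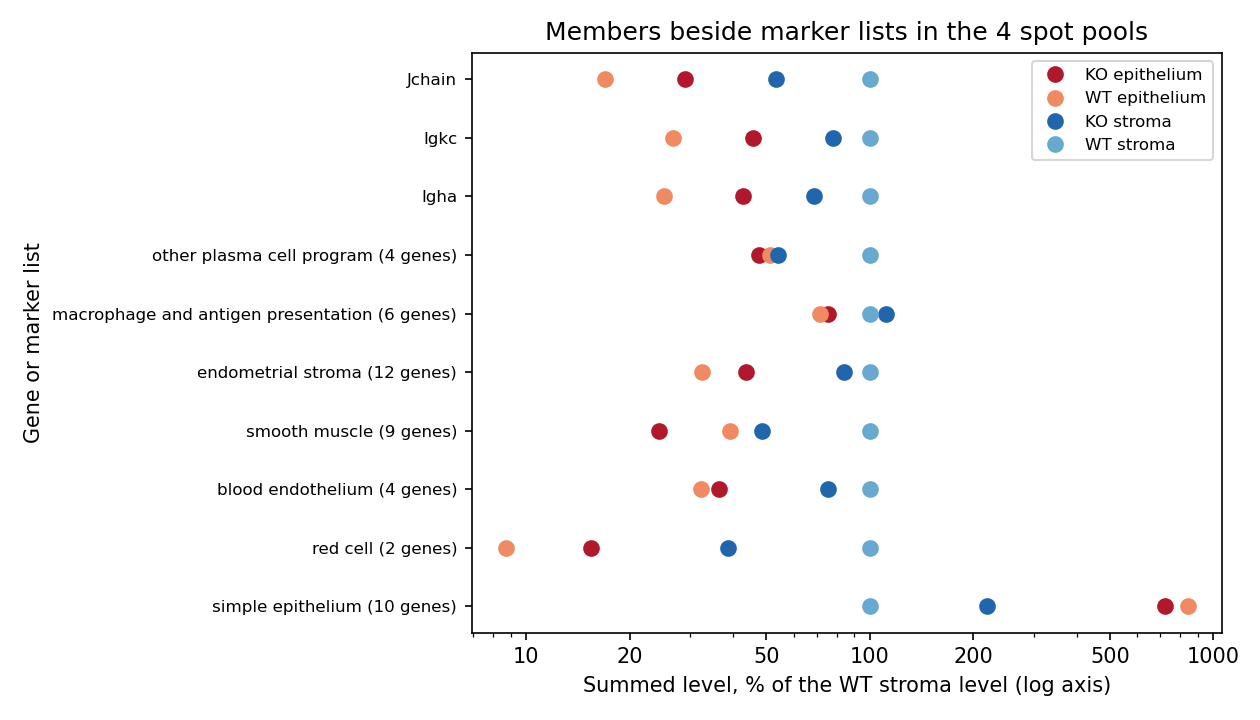
Level in the 4 spot pools as a percentage of the WT stroma level (log axis) for Jchain, Igkc and Igha and, summed over genes with a sum in every pool, for marker lists; the other plasma cell program genes are Iglc1, Xbp1, Sdc1 and Txndc5. Endometrial stroma, blood endothelium and red cell genes show the order of the members, WT stroma above KO stroma, KO epithelium and WT epithelium. Smooth muscle genes are lower in KO epithelium (24.4%) than in WT epithelium (39.1%), as are the other plasma cell program genes (47.7% and 51.0%). Macrophage and antigen presentation genes (111% in KO stroma) and simple epithelium genes do not show that order either.

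Likeness of pattern was measured as the distance between the 4 log2 levels of a gene and those of a member, each centred on its own mean over the 4 pools, among named genes whose mean level was at or above the member's lowest level. Of 394 candidates the nearest to Jchain were Dcn, a matrix proteoglycan of fibroblasts (distance 0.44), Igha (0.46), the intermediate filament gene Vim (0.51), Igkc (0.55) and the E protein gene Tcf4 (0.60), against a median of 2.00. Igkc and Igha were each other's nearest gene at a distance of 0.13, with Dcn next at 0.49 from each. For Igkc the next of 105 candidates were Igfbp7 (0.83), Actb (1.09) and Itm2b (1.15), and for Igha the next of 89 were Actb (1.13), mt-Co2 (1.20) and Fth1 (1.20). Jchain, at 0.55 from Igkc and 0.46 from Igha, was not a candidate for them, since its mean level lay under their lowest levels. Dcn, the nearest gene outside the antibody genes, had scaled levels of 1504 for KO epithelium and 1175 for WT epithelium, and of 3774 for KO stroma and 5135 for WT stroma. These distances rest on 4 pooled values and describe no shared control.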

How the data were processed

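Uteri of 4 KO and 4 WT females were profiled by Visium, per the labels' protocols, and the build GRCm38 is named in the submitters' processing notes. How reads were aligned, spots named and p-values computed is not given in the sources used here. Per the file headers, the columns that the authors deposited in the 4 tables are group averages, log2 fold changes and an adjusted p-value (FDR). Least squares on the deposited log2 values and averages gave the size factor sum of each pool, and with it UMI sums within 0.01 of whole numbers for 100% of values, which differed between tables for 0 genes. Folds are ratios of depth-scaled sums without a pseudocount, with exact Clopper-Pearson or Poisson 95% intervals. With 1 pool per group no count model was run. All pools of a genotype come from the same animals. The steps were tested on simulated data.

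The members, lists, alternatives and naming rule were chosen with earlier results of these data known. The rule named the members, other listed immunoglobulin genes, listed genes of the program, transport and recruitment lists, up to 4 called secretory genes per table, up to 3 genes per marker list and the 5 genes most like each member. Positions and constant regions are from GENCODE M21, and the promoter is from RefSeq, which matched 1 of 4 members. Python 3.11.15, NumPy 2.4.6, SciPy 1.17.1, pandas 2.3.3, Biopython 1.88 and matplotlib 3.10.9 were used.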

Additional observations from a re-analysis of the deposited data

Results flagged for a closer look

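For Jchain, Igkc and Igha the KO over WT difference took opposite directions in the compartments, higher in KO epithelium and lower in KO stroma. Ighg2c is not listed for KO epithelium and could not be compared in this way. The log2 ratio in epithelium minus that in stroma was 1.69 for Jchain, 1.30 for Igha and 1.12 for Igkc. These values are the changes in contrast given above on a log2 scale, not a further result. With 1 pool for each genotype and compartment this difference between compartments was not tested. Of the 1185 genes in both genotype tables, 192 had the same pair of directions.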

How the results depend on the processing

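The counts of called genes were 0 in both genotype comparisons and between KO compartments, and stayed 0 at an adjusted p of 0.01, with a minimum absolute log2 ratio of 1 and without the lowest 25% of genes by level. Between WT compartments 4 genes were called, and 4, 4 and 3 under the same settings; Ighg2c was the gene lost without low-level genes. Of 56 log2 ratios recomputed under 4 other scalings (the deposited value, centring on the median gene, the total of genes in every pool, and averages plus 1), 0 changed sign and 6 left their counting interval. These were Igkc and Igha in epithelium after centring (0.88 and 0.87), and, with averages plus 1, Ighg2c in both its comparisons (-1.19 between genotypes in stroma and -1.34 between WT compartments), Jchain (-2.16) and Igkc (-1.81) between WT compartments. A pseudocount shrinks ratios of low averages by construction. The IgG share without close IgG copies was not run, since Ighg2c is the single IgG gene listed.

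No paired analysis was possible because each group is 1 pool of all its animals, which also kept single replicates from being left out. Ighg2c rests on 2 UMIs in KO stroma and 4 in WT epithelium, so its ratios have wide counting intervals. Both pools were deeper than WT stroma (relative depth 2.01 and 2.54), which held 111 Ighg2c UMIs.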

Other observations

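The machinery that folds and exports antibody in plasma cells, which other cells also use, had medians near 0 in both genotype comparisons. Of 32 listed genes of the secretory pathway and unfolded protein response, 0 were called between genotypes in epithelium, 16 had a higher and 16 a lower value in KO, and the median log2 ratio was 0.00 against -0.10 over all genes. In stroma 0 of 21 were called (median -0.01 against -0.05 over all genes). The chaperone Hspa5 had 557 UMIs in KO epithelium and 431 in WT epithelium (1.19-fold, 1.05 to 1.36), and KO stroma held 462 and WT stroma 150 (1.53-fold, 1.27 to 1.85). Ssr4, a subunit of the translocon-associated complex, stood at 0.654-fold in KO over WT stroma (0.511 to 0.839). Both were named after their values were seen. Between WT compartments Herpud1, a stress-induced component of endoplasmic reticulum degradation, was the single called gene of 22, lower in epithelium (0.578-fold, 0.451 to 0.742, adjusted p = 0.0470 in the authors' deposited table). Of all genes listed there, 28.8% were called in either direction and 15.7% were called lower in epithelium, so the list was called less often than all genes. Between KO compartments 0 of 26 were called, where 9.88% of all listed genes were.

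Macrophage and antigen presentation genes had a summed ratio above 1 in both compartments. Their summed level was 1.11-fold in KO over WT epithelium over 9 listed genes and 1.12-fold in KO over WT stroma over 5, with 0 called in either. In epithelium 6 genes had a higher and 3 a lower value in KO, and in stroma 4 a higher and 1 a lower. More genes of this list are named here than the naming rule allows. The class II chain gene H2-Aa had 350 UMIs in KO epithelium and 214 in WT epithelium (1.51-fold, 1.27 to 1.80), and KO stroma held 345 and WT stroma 138 (1.24-fold, 1.02 to 1.52). H2-Ab1, another class II chain gene, had 367 UMIs in KO epithelium and 361 in WT epithelium (0.938-fold, 0.809 to 1.09). In stroma H2-Ab1 had 441 in KO and 167 in WT (1.31-fold, 1.10 to 1.58). Cd74, the class II invariant chain of B cells and macrophages, had ratios of 1.13 in epithelium (1.00 to 1.28) and 1.13 in stroma (0.982 to 1.31). Lyz2, a lysozyme of macrophages, stood at 0.694-fold in epithelium (0.562 to 0.856) and 0.731-fold in stroma (0.601 to 0.892). Other genes of the list went both ways in epithelium. C1qb had 93 UMIs in KO and 39 in WT (2.2-fold), and Tyrobp had 117 in KO and 66 in WT (1.64-fold). Laptm5 had 99 in KO and 70 in WT, with an interval of the fold that includes 1 (0.951 to 1.799). Cd14 had the lower value in KO, with 127 UMIs in KO and 198 in WT (0.592-fold). These 4 genes were not listed between genotypes in stroma.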
